A study of Mus musculus with 8 samples.

Results

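Matricellular genes encode secreted proteins that sit in the extracellular matrix and act on cells through receptors more than they bear load. The set described here is periostin (Postn), tenascin C (Tnc), thrombospondins 1 to 4 (Thbs1, Thbs2, Thbs3 and Thbs4), osteonectin (Sparc), osteopontin (Spp1), cartilage intermediate layer protein (Cilp) and fibronectin (Fn1). These 10 genes were taken by symbol from the 23847 rows of the deposited expression table, and each had a single row. Most of these proteins are scarce in the healthy postnatal heart and return after injury or overload. Periostin and tenascin C are made by activated fibroblasts, bind integrins and tie collagen to other matrix proteins. Thrombospondins bind matrix, proteases and growth factors, and fibronectin forms the provisional scaffold on which collagen is laid down.

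Ventricles were compared between 4 libraries from cardiac Med1 knockout mice (Med1cKO, called knockout) and 4 from mice with the floxed, undeleted gene (Med1fl/fl, labelled and called WT), all C57BL/6 and at postnatal day 21. Med1 is a subunit of Mediator, which links transcription factors to RNA polymerase II. The labels give neither the driver of the deletion nor whether each library came from a separate animal, so that p-values speak only of the spread among the 8 libraries, which may be technical. Poly(A) RNA was measured as FPKM, fragments scaled to transcript length and library size, a unit in which levels of different genes can be set side by side. Summed FPKM ran from 481650 to 502549 in knockout and from 507458 to 536146 in WT libraries, and the number of fragments per library is unknown. Med1 itself was at 7.80, 8.37, 7.89 and 9.15 FPKM in knockouts 1 to 4, and at 15.5, 16.1, 10.6 and 16.8 FPKM in WT 1 to 4. The groups did not overlap (exact two-sided permutation p = 0.0286, the smallest that 4 against 4 can give).

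Of the 10 matricellular genes, 9 rose in the knockout, none fell, and Thbs2 did not pass the test. The test was limma on log2(FPKM + 1) with adjustment over the 11974 genes whose mean reached 1 FPKM, where an adjusted p under 0.05 was called. By the same rule 44.9% of all genes tested were called higher and 16.4% lower, so that a rise by itself was common. The sizes stood further from the rest. The 10 genes were chosen with earlier results of these data known, so that this describes them and is no test. The median log2 change of the 10 genes was 2.08, beside 0.25 over all genes tested. A call with a log2 change of at least 3 was reached by 0.367% of all genes and by Cilp, Postn, Thbs1 and Thbs4 here. All 10 genes passed the expression minimum, but Tnc and Spp1 had WT means under 1 FPKM and passed through their knockout level, so that these were bound to differ. Knockout libraries lay wholly above WT for the same 9 genes, as they did for 41.7% of all genes tested. In RNA from whole ventricle, a change in the number of cells of a type and a change in RNA per cell cannot be told apart.

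**Figure D1:**
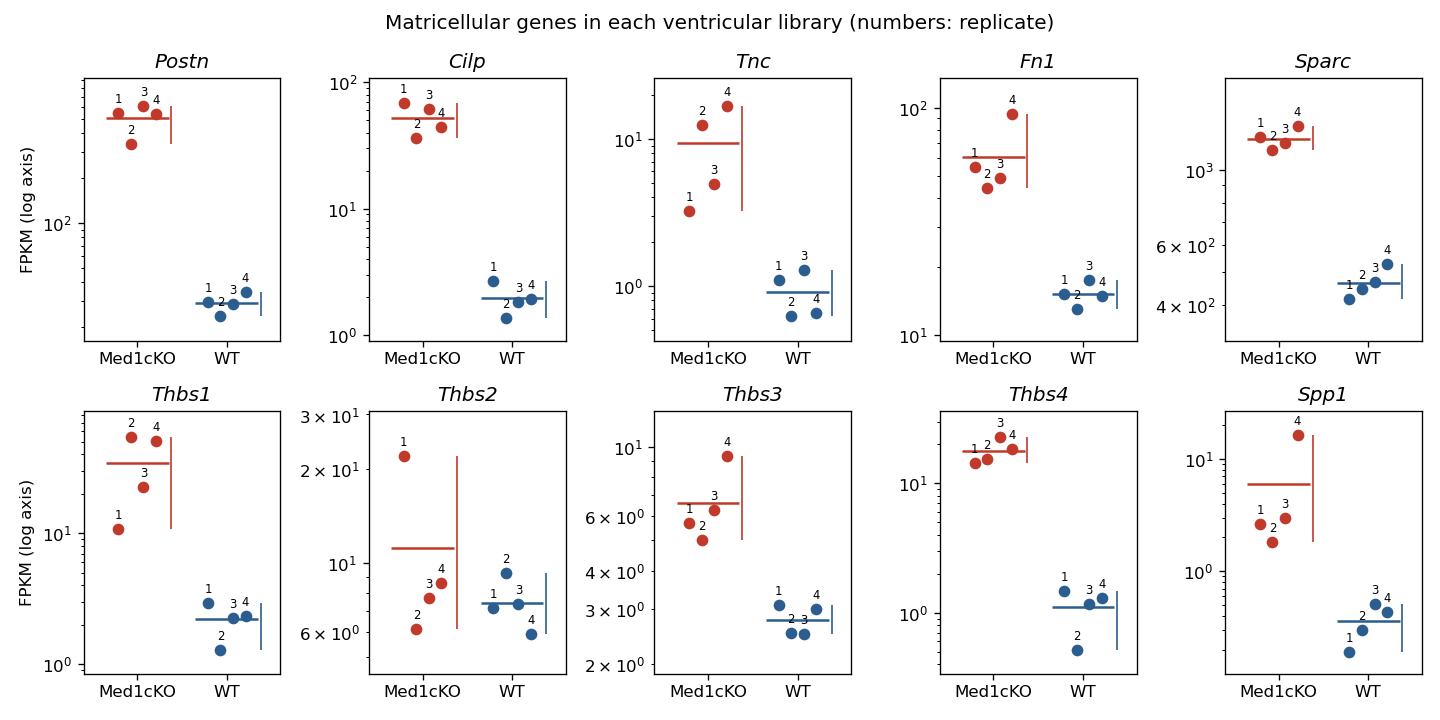
FPKM (log axis) of the 10 genes in each library, with Med1cKO in red and WT in blue, replicate numbers above the points, horizontal lines at group means and vertical lines from the lowest to the highest library. The groups are apart in every panel but that of Thbs2, where knockout 1 at 22.1 FPKM stands above the other 7 libraries.

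Postn, which encodes the collagen-organising integrin ligand periostin (mm10 chromosome 3, 54361107 to 54391041), had 547, 338, 608 and 535 FPKM in knockouts 1 to 4, against 29.4, 23.9, 28.4 and 34.4 FPKM in WT 1 to 4. Even the lowest knockout library was far above the highest WT library. Group means were 507 ± 117 FPKM in knockout and 29.0 ± 4.34 FPKM in WT (SD, n = 4 each), a ratio of 17.5, and the log2 change was 4.06 ± 0.183 (SE; adjusted p by limma = 6.29e-07). Cilp encodes a matrix protein of cartilage and fibrotic heart that binds and restrains TGF-beta (chromosome 9, 65265180 to 65280605). It had 68.0, 36.3, 61.4 and 44.5 FPKM in knockouts 1 to 4, against 2.69, 1.37, 1.83 and 1.94 FPKM in WT 1 to 4. Its log2 change of 4.15 ± 0.204 (SE; adjusted p by limma = 8.99e-07) was the 10th highest of the 11974 genes, and that of Postn the 11th. Both genes had their lowest knockout value in knockout 2. Cilp amounted to 8.32 to 12.4% of the Postn level in knockout and to 5.65 to 9.12% in WT libraries, so that the proportion of one to the other overlapped between the groups.

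The promoters of these genes, most of which rose, were read from RefSeq sequence (GRCm38.p6, the assembly behind mm10). Of the 10 genes, 7 had an entry that began at the start of the deposited locus, and Thbs1, Thbs3 and Fn1 were not analysed here. Both strands of the 250 bases before the start were searched. The letters TATAAA, those of a TATA box, were found at any position in 4 of the 7 (Postn, Tnc, Thbs2 and Spp1) and in 12.4% of all 32851 promoters. A TATA box acts close to the start on the gene's strand. Only in Postn did these exact letters lie there, from base -26 to -21. They began at -126 in Tnc, at -211 in Spp1 and at -126 on the opposite strand in Thbs2. Variants of the letters were not sought. The Cilp promoter holds tatataag and the Thbs4 promoter cataaa, each shortly before the start. The SMAD motif of TGF-beta signalling, sought as CAGAC, was in 4 of the 7 (Thbs2, Thbs4, Sparc and Spp1) and in 42.2% of all. The TEAD motif of Hippo signalling, sought as GGAATG, was in Thbs4 and in 12.6% of all. None of the 7 held the AP-1 motif TGANTCA, which was in 6.75% of all. None held the E-box letters CACGTG, in 6.02% of all, or the CArG box of serum response factor, in 1.47%. The promoter of Postn, the most abundant of the genes with the largest changes, is given 5′ to 3′ on the gene's strand, with a searched motif in capitals.
Postn, + strand, chr3:54360857-54361106: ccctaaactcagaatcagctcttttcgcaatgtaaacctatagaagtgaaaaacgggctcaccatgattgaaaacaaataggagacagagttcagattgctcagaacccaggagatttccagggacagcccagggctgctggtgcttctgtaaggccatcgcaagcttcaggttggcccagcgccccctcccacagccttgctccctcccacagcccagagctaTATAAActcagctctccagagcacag

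The genes nearest to Postn were found by the root mean square difference over the 8 libraries, after each profile of log2(FPKM + 1) was centred on its own WT mean. By this measure a gene is near mostly when its change is of like size, so that nearness does not show that a gene follows Postn. The nearest were Ltbp2 at 0.20, Col8a1 at 0.21, Cilp at 0.21, Lox at 0.29 and Prss57 at 0.33 log2 units. Ltbp2 and Prss57 had WT means of 0.170 and 0.490 FPKM and reached the expression minimum only through their knockout level. Ltbp2 encodes a latent TGF-beta binding protein of elastic fibres, Col8a1 a short-chain collagen, and Lox the lysyl oxidase that cross-links collagen and elastin. Ltbp2 had 16.6, 11.4, 20.4 and 18.1 FPKM in knockouts 1 to 4, against 0.172, 0.218, 0.121 and 0.168 FPKM in WT 1 to 4. Like Postn and Cilp, Ltbp2, Col8a1 and Lox had their lowest knockout value in knockout 2, with Col8a1 at 111 and Lox at 34.5 FPKM. Prss57, a neutrophil serine protease gene, had its lowest in knockout 1, at 15.1 FPKM. The nearest genes were picked on these same libraries, so that a lowest library shared with Postn is partly built into the choice. Within the 10 genes, Thbs4 followed Cilp in likeness to Postn, at 0.68 log2 units.

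Tnc encodes tenascin C, an anti-adhesive glycoprotein of the embryonic and injured heart (chromosome 4, 63959785 to 64047015). It had 3.25, 12.5, 4.93 and 16.8 FPKM in knockouts 1 to 4, against 1.09, 0.627, 1.28 and 0.659 FPKM in WT 1 to 4. Knockouts 2 and 4 were high and knockouts 1 and 3 low, and all lay above WT. On the log2 scale the knockout was higher by 2.22 ± 0.410 (SE; adjusted p = 0.00122 by limma). Thbs1, which encodes the TGF-beta activating thrombospondin 1 (chromosome 2, 118111922 to 118127133), showed the same division, with 10.8, 54.4, 22.5 and 50.8 FPKM in knockouts 1 to 4, against 2.91, 1.28, 2.26 and 2.34 FPKM in WT 1 to 4. The difference on the log2 scale was 3.25 ± 0.449 (SE; adjusted p = 2.16e-04 by limma), and the highest knockout library had 5.02 times the level of the lowest. Epicardial and mesothelial markers, summed over 7 genes, were at 14.7, 48.2, 35.9 and 75.8 FPKM in knockouts 1 to 4, against 9.72, 6.36, 13.6 and 8.30 FPKM in WT 1 to 4. Aldh1a2, a retinoic acid synthesis gene, made up most of that sum in knockouts 2 and 3, and the other 6 markers came to 10.5, 6.38, 4.75 and 52.7 FPKM in knockouts 1 to 4, against 3.12 to 9.83 FPKM in WT. These 6 were high in knockout 4 and not in knockout 2. The part of these markers in the levels of Tnc and Thbs1 was not tested. Platelets carry thrombospondin 1, and the summed level of 8 platelet markers overlapped between the groups, at 15.0 to 38.8 FPKM in knockout and 23.1 to 36.9 FPKM in WT libraries. Most of that sum was Pf4, at 11.8 to 34.7 FPKM in knockout and 19.8 to 33.9 FPKM in WT libraries. Of the 8 markers, 5 stayed under 1 FPKM in every library. The part of platelets in the Thbs1 level was not tested.

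The other thrombospondins differed from Thbs1 and from each other. Thbs4 encodes a thrombospondin of muscle and tendon that, in the mouse heart, also acts inside the endoplasmic reticulum on the stress sensor ATF6 (chromosome 13, 92751586 to 92794818). It had 14.4, 15.5, 22.9 and 18.5 FPKM in knockouts 1 to 4, against 1.46, 0.511, 1.17 and 1.30 FPKM in WT 1 to 4. The knockout libraries were even, and the log2 change of 3.16 ± 0.182 (SE; adjusted p by limma = 1.88e-06) was close in size to that of Thbs1 with a smaller error. Thbs3, a less studied member with the same domain plan as Thbs4 (chromosome 3, 89215187 to 89226837), had 5.71, 5.02, 6.28 and 9.37 FPKM in knockouts 1 to 4, against 3.11, 2.52, 2.49 and 3.01 FPKM in WT 1 to 4. Its log2 change of 0.98 ± 0.160 (SE; adjusted p by limma = 5.95e-04) was the smallest of the 9 that passed. Thbs2, an inhibitor of vessel growth related to Thbs1 (chromosome 17, 14665500 to 14694262), had 22.1, 6.12, 7.69 and 8.64 FPKM in knockouts 1 to 4, against 7.14, 9.29, 7.37 and 5.89 FPKM in WT 1 to 4. Knockout 1 stood apart, and the other knockouts lay within the WT range. The log2 change was 0.38 ± 0.322 (SE; adjusted p by limma = 0.333), and 0.01 without knockout 1.

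Thbs4 and Thbs2 are given in the same way, as the thrombospondin with the most even knockout libraries and the one that did not pass. Capitals mark matches on either strand. In Thbs4 a pair of overlapping TEAD matches from base -197 to -187 is followed at once by a SMAD match that ends at -182, so that these form 1 run of capitals, and a second SMAD match lies from -226 to -222. In Thbs2 the TATAAA match runs from -126 to -121, and SMAD matches end at -62 and -39.
Thbs4, - strand, chr13:92794819-92795068: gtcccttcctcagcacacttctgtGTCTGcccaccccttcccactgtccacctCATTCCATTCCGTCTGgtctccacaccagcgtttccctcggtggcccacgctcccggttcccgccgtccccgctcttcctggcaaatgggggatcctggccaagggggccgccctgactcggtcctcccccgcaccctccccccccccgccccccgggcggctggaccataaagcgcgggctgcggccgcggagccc
Thbs2, - strand, chr17:14694263-14694512: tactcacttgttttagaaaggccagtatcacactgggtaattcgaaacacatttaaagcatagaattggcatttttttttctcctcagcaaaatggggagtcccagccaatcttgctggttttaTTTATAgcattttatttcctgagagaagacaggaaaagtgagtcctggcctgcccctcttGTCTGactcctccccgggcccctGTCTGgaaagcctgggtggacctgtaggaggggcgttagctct

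Taken as a family, thrombospondin transcripts were at 70.2 ± 16.6 FPKM in knockout and 13.5 ± 0.861 FPKM in WT libraries (SD, n = 4 each), a ratio of 5.19 (exact two-sided permutation p = 0.0286, the smallest the design allows). The make-up of this sum differed as well. In knockouts 1 to 4, Thbs2 held 41.6, 7.55, 13.0 and 9.90% of it, against 48.8, 68.3, 55.5 and 47.0% in WT 1 to 4. Thbs2 was thus the most abundant thrombospondin in all 4 WT libraries and, of the knockouts, only in knockout 1. Thbs4 held 19.1 to 38.5% in knockout and 3.76 to 10.4% in WT libraries, with no overlap. Thbs1 held 20.4, 67.2, 37.9 and 58.2% in knockouts 1 to 4, against 9.43 to 19.9% in WT, and Thbs3 held 6.20 to 10.8% in knockout and 18.5 to 24.0% in WT libraries. Within a library these shares do not depend on a scaling common to all genes. They are descriptions and were not tested.

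**Figure D2:**
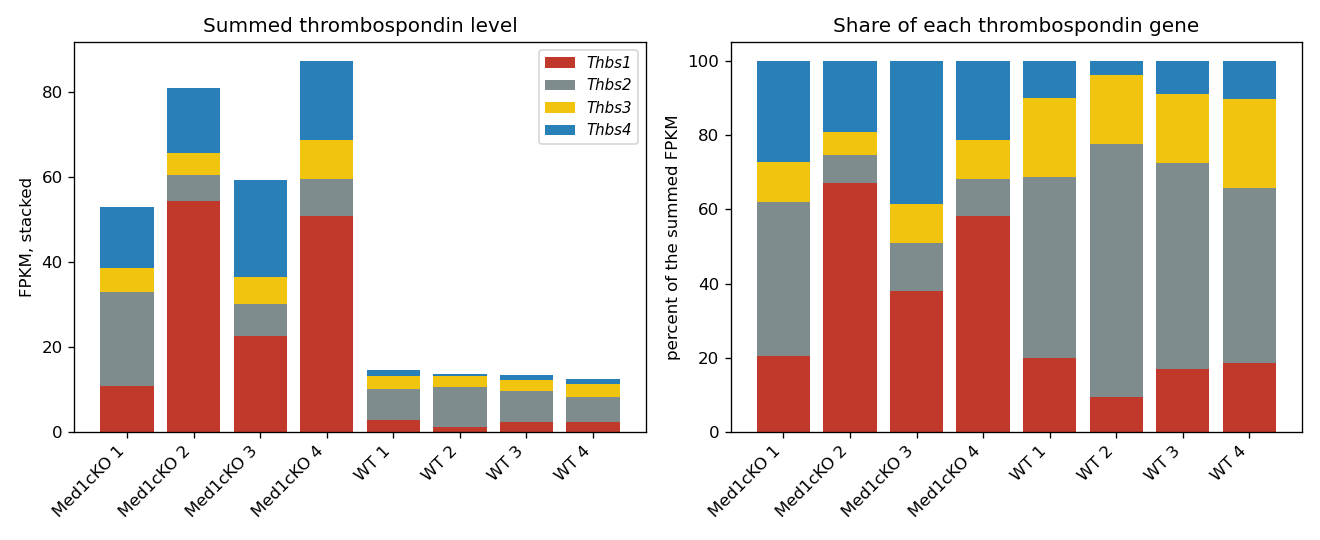
Stacked FPKM of the 4 thrombospondin genes (left) and the percent of their sum held by each (right) in the 4 Med1cKO and the 4 WT libraries. Sums are 53.0 to 87.3 FPKM in Med1cKO and 12.5 to 14.6 FPKM in WT, and the grey Thbs2 segment, 47.0 to 68.3% of every WT bar, is 41.6% in knockout 1 and at most 13.0% in the other knockouts.

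Sparc, Fn1 and Spp1 rose, with smaller log2 changes than Postn and Cilp. Sparc encodes a collagen-binding glycoprotein needed for collagen fibril maturation (chromosome 11, 55394501 to 55420080). It was the most abundant of the 10 genes in both groups, with 1246, 1147, 1201 and 1350 FPKM in knockouts 1 to 4, against 416, 445, 468 and 527 FPKM in WT 1 to 4. The libraries of each group lay close together, and the log2 change was 1.41 ± 0.0929 (SE; adjusted p by limma = 3.58e-06). Fn1 (chromosome 1, 71585473 to 71653234) had 54.7, 44.4, 49.3 and 93.8 FPKM in knockouts 1 to 4, against 15.2, 13.1, 17.6 and 14.9 FPKM in WT 1 to 4, a log2 change of 1.87 ± 0.209 (SE; adjusted p by limma = 6.32e-05). Spp1 encodes osteopontin, a phosphoprotein made by activated macrophages and other stressed cells (chromosome 5, 104435111 to 104441053). It had 2.66, 1.81, 2.98 and 16.4 FPKM in knockouts 1 to 4, against 0.191, 0.296, 0.510 and 0.434 FPKM in WT 1 to 4. Knockout 4 stood apart, although every knockout library was above every WT library. The log2 change was 1.93 ± 0.491 (SE; adjusted p by limma = 0.00712) with knockout 4 and 1.35 without it (limma adjusted p = 1.63e-04). The value of 1.93 depends on the pseudocount, since a pseudocount of 0.1 gave a log2 change of 3.20 over the same libraries. The ratio of mean FPKM was 16.7, and it too includes knockout 4. The summed level of 12 macrophage markers overlapped between the groups, at 350, 207, 278 and 404 FPKM in knockouts 1 to 4, against 278 to 422 FPKM in WT, and none of them passed the test (3 were called lower by the median of ratios). Single markers differed in their highest knockout. Itgam was at 10.1 FPKM in knockout 4, beside 1.43 to 2.46 in the others, and Cd163 at 9.93 FPKM in knockout 1, beside 2.93 to 5.52. The part of macrophages in the Spp1 level was not tested.

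The knockout libraries did not differ from one another by a common factor. Knockout 2 was the lowest of the 4 for 7 of the 10 genes and the highest for Thbs1. Knockout 1 was the lowest for Tnc, Thbs1 and Thbs4 and the highest for Thbs2 and Cilp. Knockout 4 was the highest for 5 genes, Tnc, Thbs3, Sparc, Spp1 and Fn1. That library also had the highest Timp1 at 166 FPKM, beside 22.9 to 37.7 FPKM in the other knockouts, the highest sum of erythroid markers at 10345 FPKM, beside 1206 to 2735, and the highest level of the atrial light chain gene Myl7 at 726 FPKM, beside 2.50 to 61.6. The part of these in the matricellular levels was not tested. Without knockout 4 all 9 genes were still called.

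In order of mean level, knockout ventricles had Sparc, Postn, Fn1, Cilp, Thbs1, Thbs4, Thbs2, Tnc, Thbs3 and Spp1, and WT ventricles had Sparc, Postn, Fn1, Thbs2, Thbs3, Thbs1, Cilp, Thbs4, Tnc and Spp1. From Fn1 downwards in knockout, the ranges of each pair of neighbours overlapped. In WT, Sparc, Postn, Fn1, Thbs2 and the genes below Thbs2 were separated, neighbours from Thbs3 to Tnc overlapped, and Spp1 lay below all. The 10 genes together came to 1942 ± 202 FPKM in knockout and 525 ± 49.5 FPKM in WT libraries (SD, n = 4 each). Sparc held 60.4 to 69.1% of this sum in knockout and 86.8 to 89.4% in WT, and Postn held 20.3 to 30.6% in knockout and 4.79 to 6.14% in WT.

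All 9 calls held under other scalings. The median log2 change of all genes was 0.25, and with libraries rescaled by the median of ratios, which removes that shift, 27.0% of all genes were called higher and 26.9% lower. By quantile normalization 28.7% were higher and 25.6% lower. The 9 genes were called higher by both, and by the median of ratios had log2 changes of 3.78 for Postn, 3.92 for Cilp, 3.02 for Thbs1, 2.95 for Thbs4, 2.03 for Tnc, 1.79 for Spp1, 1.60 for Fn1, 1.13 for Sparc and 0.75 for Thbs3, and Thbs2 was at 0.13. In the authors' deposited table of the comparison, the same 9 genes were marked significant, each with a q-value of 2.11e-04, and Thbs2 was not (q = 0.0991). The authors' deposited table uses no pseudocount, and its log2 changes for the low genes were larger, with Tnc at 3.08 and Spp1 at 3.75. Those of Thbs1, Thbs4 and Cilp were larger too. Postn (3.84), Sparc (1.12), Fn1 (1.70), Thbs2 (0.30) and Thbs3 (0.96) had smaller values there than by limma. Its pooled levels also differ, with Sparc at 597 FPKM in WT beside a mean of 464 FPKM here, so that the pseudocount is not the only difference.

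**Figure D3:**
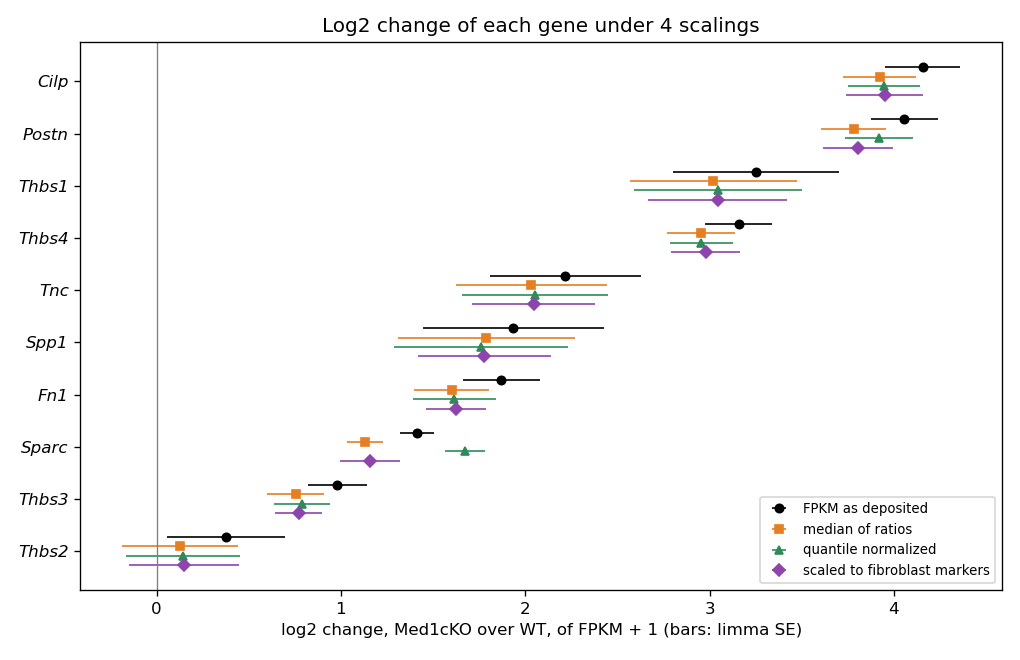
Log2 change of each gene, Med1cKO over WT, on log2(FPKM + 1), with limma standard errors as bars, for FPKM as deposited and for 3 rescalings. Each of the 9 genes from Cilp (4.15 as deposited) to Thbs3 (0.98) keeps to the right of 0 under every scaling drawn, and the bars of Thbs2 (0.38) reach 0 under all 3 rescalings.

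Fibroblasts are the main source of most of these proteins, so the genes were also set against markers of fibroblast identity. Of 14 such markers, 5 were called higher and 1 lower, and their median log2 change was 0.25, that of all genes tested. Their summed level was 1264 to 1877 FPKM in knockout and 1038 to 1381 FPKM in WT libraries, which overlapped. Tcf21, a transcription factor of cardiac fibroblasts, rose with a log2 change of 1.27, and the collagen processing enhancer gene Pcolce with one of 1.40. Scara5 fell with one of -1.61, with knockout 1 at 6.40 FPKM and the other knockouts at 1.27 to 1.57. With the libraries scaled to a common mean level of these 14 markers, 20.0% of all genes were called higher and 19.4% lower. All 9 genes were called higher on that scale too, with log2 changes of 3.81 for Postn, 3.95 for Cilp, 2.98 for Thbs4 and 1.16 for Sparc, and Thbs2 was at 0.15 (limma adjusted p = 0.726).

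Markers of activated fibroblasts other than Postn and Tnc gave 6 of 8 higher and none lower (1 was lower by the median of ratios), at a summed 412 to 784 FPKM in knockout and 198 to 350 FPKM in WT libraries. Lox rose with a log2 change of 4.25, Cthrc1, a collagen-triple-helix protein of injury fibroblasts, with 3.88 and Tagln, an actin-binding protein of smooth muscle and myofibroblasts, with 2.22. Tagln was at 333 FPKM in knockout 4 and at 96.3 to 101 FPKM in the other knockouts. Acta2, the smooth muscle actin of myofibroblasts, had a log2 change of -0.07 (limma adjusted p = 0.804) and Fap one of -0.20 (limma adjusted p = 0.179), and neither passed. Genes of valve, tendon and cartilage, tissues rich in Cilp, Thbs4 and Tnc, were summed over 9 genes at 24.3 to 62.5 FPKM in knockout and 2.55 to 4.45 FPKM in WT libraries. All 3 that reached the expression minimum rose, Scx with a log2 change of 3.19, Comp with 2.18 and Fmod, at 4.03 to 20.9 FPKM in knockout against 0.231 to 0.944 FPKM in WT libraries, while Tnmd, Mkx and Lect1 stayed under 1 FPKM in every library. Comp and Fmod had WT means under 1 FPKM and, like Cthrc1, reached the minimum only through their knockout level, so that their rise was fixed by it. The part of these genes in the matricellular changes was not tested.

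Among the remaining cell types, smooth muscle and pericyte markers went both ways (6 of 12 tested rose and 4 fell, and 4 and 4 by the median of ratios). Over all genes tested, 44.9% were called higher and 16.4% lower. Cnn1 had a log2 change of 7.17, Tagln 2.22 and Mcam 2.07. The 4 that fell were Abcc9 at -1.79, Vtn at -1.48, Kcnj8 at -0.46 and Rgs5 at -0.42. The 12 markers summed to 946 to 1217 FPKM in knockout and 473 to 651 FPKM in WT libraries. Without Cnn1, a calponin gene, the other 11 summed to 604 to 949 FPKM in knockout and 472 to 650 FPKM in WT libraries, which overlapped. Endothelial markers gave 2 of 10 higher and 2 lower, but none higher and 4 lower by the median of ratios, with Cldn5 at 0.82, Pecam1 at 0.34 and Kdr at -0.42. Cardiomyocyte markers gave 8 of 10 lower and 2 higher, with Myh6 at -2.44, Tnni3 at -2.36 and Myl2 at -1.48. Atrial markers rose in 5 of 6 tested, Myl7 with 5.22, Nppa with 4.64 and Myl4 with 3.98, of which Myl7 and also Sln reached the minimum only through their knockout level. Nppa held 76.3 to 99.4% of the atrial sum in knockout and 96.4 to 98.2% in WT libraries. Epicardial markers rose in 2 of 6 (1 by the median of ratios), Aldh1a2 with 1.97 and Tbx18 with 0.49. Aldh1a2 in knockout 1, at 4.25 FPKM, lay within the WT range of 2.68 to 6.60 FPKM. No erythroid (5 tested), Schwann and neural (2) or platelet (2) marker passed, though 1 of the platelet markers was called lower by the median of ratios, with Hba-a1 at -0.03, Hbb-b2 at -0.30, Mbp at 0.57, Pf4 at -0.64 and Gp1ba at 0.01. Of 5 other leukocyte markers 1 passed, S100a8 with 0.73, which was not called by the median of ratios, and the abundant macrophage genes Lyz2 and C1qa had 0.09 and -0.35. Of 5 skeletal muscle markers 3 rose and 2 fell, with Acta1 at 3.63, Tnni2 at -2.28 and Tnnt3 at 2.29, and Tnnt3 and Mylpf reached the minimum only through their knockout level. No marker of these lists was at 0 in every library.

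**Figure D4:**
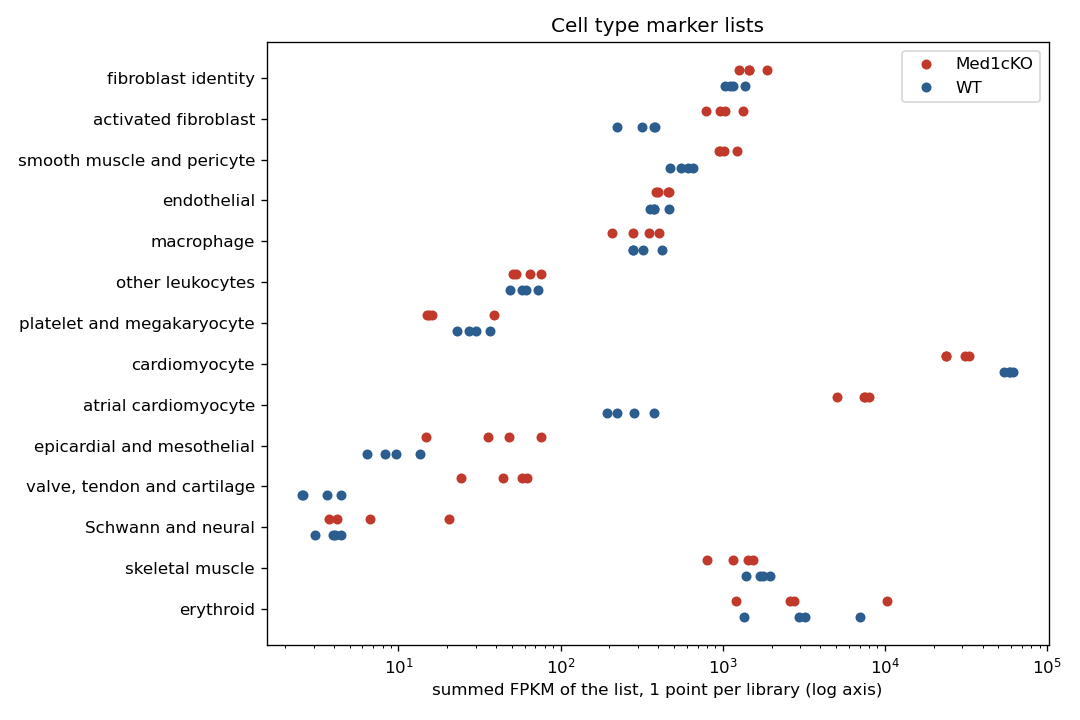
Summed FPKM (log axis) of each cell type marker list in the 4 Med1cKO (red) and 4 WT (blue) libraries, 1 point per library. Fibroblast identity, endothelial, macrophage, other leukocyte, platelet, Schwann, skeletal muscle and erythroid sums overlap between the groups, while activated fibroblast, which holds Postn and Tnc, smooth muscle, cardiomyocyte, atrial, epicardial and valve sums do not, although the smooth muscle sum overlaps without Cnn1 and the epicardial sum without Aldh1a2.

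Other matricellular genes moved in the same direction where they were called. Of 27 listed genes 21 were tested, 15 rose and none fell, with a median log2 change of 1.44. By the median of ratios 13 were higher and none lower, and with fibroblast marker scaling 15 were higher and 1 lower. Among all genes tested, 44.9% were called higher as deposited, 27.0% by the median of ratios and 20.0% with fibroblast marker scaling. Comp, among the 15, reached the expression minimum only through its knockout level. Wisp2, a connective tissue growth factor relative (now called Ccn5), had 74.8, 26.0, 57.5 and 48.8 FPKM in knockouts 1 to 4, against 1.48, 1.84, 0.662 and 1.02 FPKM in WT 1 to 4, a log2 change of 4.49. Ctgf, the growth factor itself, rose with 3.36, and the small proteoglycan gene Bgn with 2.77 to 649 ± 75.9 FPKM in knockout, against 94.3 ± 10.7 FPKM in WT (SD, n = 4 each). Not every relative passed the test. Sparcl1, the closest relative of Sparc, was at 194 ± 37.4 FPKM in knockout and 195 ± 31.8 FPKM in WT libraries (SD, n = 4 each; log2 change -0.02, limma adjusted p = 0.929), and the tenascin X gene Tnxb had a log2 change of -0.23 (limma adjusted p = 0.349).

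Receptors of the matricellular proteins were mostly higher. Of 19 tested, 13 rose and 1 fell (11 and 3 by the median of ratios, 10 and 2 with fibroblast marker scaling). The median log2 change of the 19 was 0.69. Among all genes tested, 44.9% were called higher and 16.4% lower as deposited, and 27.0% and 26.9% by the median of ratios. Cacna2d1, a thrombospondin receptor, was left out because its estimate failed in WT 2. Itgav, the alpha v integrin subunit that binds periostin, osteopontin and fibronectin, had 18.1, 17.3, 21.6 and 19.6 FPKM in knockouts 1 to 4, against 5.06, 5.15, 5.36 and 4.95 FPKM in WT 1 to 4, a log2 change of 1.71 (limma adjusted p = 8.10e-07). Cd44, a receptor of hyaluronan and osteopontin, rose with 1.87. Itgb6, the beta subunit that pairs with alpha v on epithelial cells, fell with a log2 change of -2.55, at 0.163 to 0.366 FPKM in knockout against 5.26 to 7.79 FPKM in WT libraries. Cd47 and Cd36, both receptors of thrombospondin 1, had log2 changes of -0.09 (limma adjusted p = 0.381) and -0.51 (limma adjusted p = 0.0713) and did not pass.

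Regulators of matricellular transcription in the TGF-beta and serum response factor pathways gave 19 of 22 higher and 1 lower, with a median log2 change of 0.75 (14 higher and 2 lower by the median of ratios). Tgfb2, a TGF-beta ligand, had 35.3, 32.1, 32.9 and 24.9 FPKM in knockouts 1 to 4, against 2.44, 2.40, 2.03 and 2.18 FPKM in WT 1 to 4, a log2 change of 3.30 (limma adjusted p = 2.16e-07). Tgfb1, the ligand gene most often linked to fibrosis, had a smaller change of 0.43. Scx, the tendon transcription factor scleraxis, and Ltbp2 rose as given above, Ltbp2 reaching the minimum only through its knockout level. Among 22 tested genes of matrix assembly and processing 21 rose and none fell (Mmp3 reached the minimum only through its knockout level), with a median of 1.38, led by Lox, by Timp1 with 3.88 and by the elastin gene Eln with 3.60. Of 18 tested folding genes of the endoplasmic reticulum linked to Thbs4 and ATF6, 13 rose and none fell, with a median of 0.58. By the median of ratios 10 of these and 19 of the matrix assembly genes were called higher. Over all genes tested, 44.9% were called higher as deposited and 27.0% by the median of ratios. Atf6 rose with 1.28, to 47.5 ± 7.73 FPKM in knockout, against 18.8 ± 0.296 FPKM in WT (SD, n = 4 each), and Dnajb9 and Sdf2l1 rose with 1.27 and 1.10. Hspa5, the chaperone BiP, had a log2 change of 0.02 (limma adjusted p = 0.895). With the libraries scaled to fibroblast markers, 6 of these 18 were called higher.

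**Figure D5:**
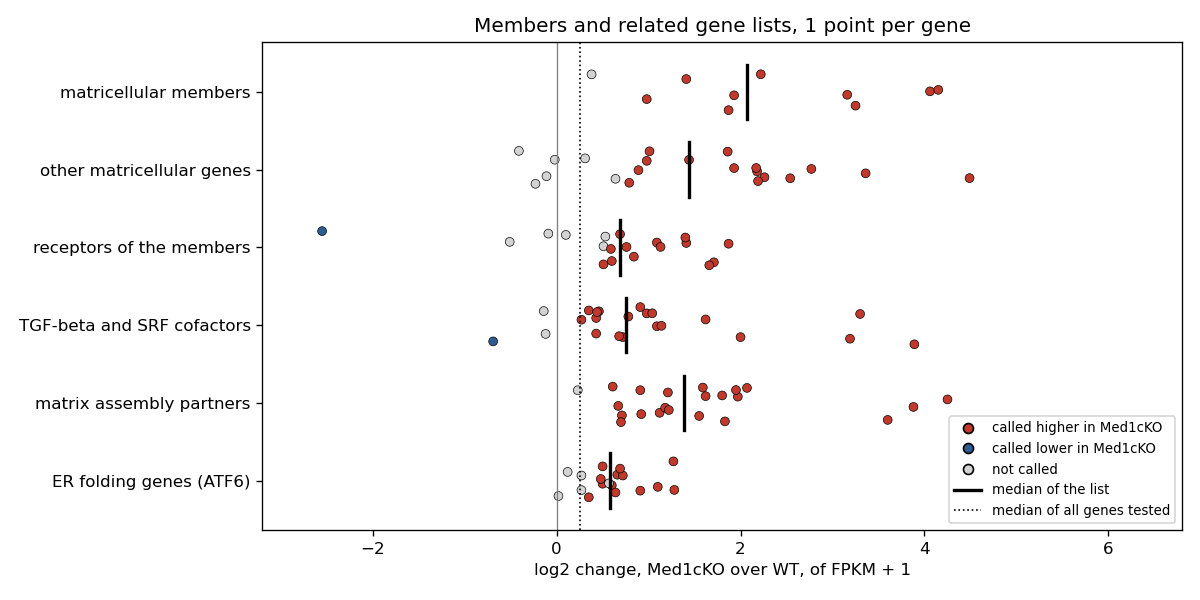
Log2 change, Med1cKO over WT, of every tested gene of the 10 matricellular genes and 5 related lists, 1 point per gene, red where called higher, blue where called lower and grey where not called. List medians (bars) run from 0.58 for endoplasmic reticulum folding genes to 2.08 for the 10 genes, all above the dotted median of all genes at 0.25, and Itgb6 at -2.55 is the lowest point.

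In GENCODE M21 (GRCm38), 5 of the 10 loci overlap another gene, and since it is not given whether fragments were assigned by strand, reads of the overlap cannot be told apart. Thbs3 shares 318 exon bases with Mtx1 on the other strand, Fn1 292 with Apol7d, Thbs1 208 with Gm29233 and Tnc 176 with 8030451A03Rik, also on the other strand, and Spp1 shares 309 with Gm42793 on its own strand.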

How the data were processed

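Poly(A) RNA from flash-frozen ventricles went into stranded TruSeq libraries, per the labels' protocols. The submitters' processing notes and design text name the TopHat app (1.0.0) on mm10, then Cufflinks and Cuffdiff. Their gene annotation, the other versions and the use of strand in counting are not given here. One deposited table holds the authors' FPKM for each gene and library. Another, per the file headers, holds FPKM pooled by group, a log2 fold change, a test score, a p-value and a q-value for each gene. Of 23847 rows, 312 hold a word in place of a number in every library and 1 in a single library, and these were left out of the tests, and 0.001 FPKM, the floor in the deposited table, was set to 0.

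Groups and replicate numbers come from the sample titles. The test was limma (version 3.58.1, R 4.3.3) with an intensity trend on log2(FPKM + 1), two-sided, with Benjamini-Hochberg adjustment over the genes whose mean reached 1 FPKM, and the procedure was tested on simulated data. Log2 changes are knockout minus WT on the FPKM + 1 scale, which understates those of low genes, and ratios of means are of FPKM. FPKM carries no depth, so no counting error is given. Single values were compared by exact permutation of libraries (scipy 1.17.1). For each list the text names the 3 called genes with the largest change, or the 2 most abundant where none was called, and the 5 genes nearest to Postn. A marker gene that this rule names is not reported here. Acta2, Fap, Sparcl1, Tnxb, Cd47, Cd36, Tgfb1, Hspa5, Sln, Mylpf, Mmp3, Itgam, Cd163, Abcc9, Vtn, Kcnj8 and Rgs5 were added after their values were seen. The members and lists were chosen with earlier results of these data known. Deposited loci start from 0, and 1 was added to each start. Replicate numbers did not pair the libraries. Alternatives were other scalings, minimums, pseudocounts and variance models, the replicate block and each library left out.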

Additional observations from a re-analysis of the deposited data

Results flagged for a closer look

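Among the 10 genes and the thrombospondin sum, 22 groups of 4 libraries were examined for a library far from the others, by the gap to its nearest neighbour over the range of the group, and 2 exceeded Dixon's 95% limit. Chance alone flags about 1 group in 20. Thbs2 in knockout 1 was at 22.1 FPKM, with a gap of 0.842 of the range above the other knockouts, and Spp1 in knockout 4 was at 16.4 FPKM, with a gap of 0.920.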

How the results depend on the processing

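Every recomputed log2 change of the 10 genes, 80 with a library left out and 88 with other settings, kept its direction and its side of the threshold. Called genes were 9 higher and none lower in all settings but the minimum of 5 FPKM, which leaves out Thbs3 and Spp1 and gave 7. Leaving out single libraries gave 3.96 to 4.24 for Postn, 2.95 to 3.70 for Thbs1, 0.01 to 0.58 for Thbs2 and 1.35 to 2.23 for Spp1. Over all genes, 5371 higher calls became 3236 by the median of ratios, 3437 by quantile normalization and 2392 scaled to fibroblast markers, and 1964 lower calls became 3223 and 3067 by the first 2. The 2 lower calls of the related lists became 1 with a minimum of 5 FPKM, 5 by the median of ratios, 4 by quantile normalization and 5 scaled to fibroblast markers, and were 2 to 4 with a library left out (4 without knockout 4). With a library left out, the difference in Med1 was -7.84 to -5.76 FPKM and that in summed thrombospondins 50.9 to 62.4 FPKM, each with an exact permutation p of 0.0571, the smallest that 4 against 3 allows. With the replicate block, 5089 genes were higher and 1867 lower, and the calls of the 10 genes were unchanged. Same-numbered libraries had correlations of -0.0409 to 0.14 between their deviations from the group means, so the numbers were not taken as pairs.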
